A study of Mus musculus with 6 samples.

Results

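This section describes 10 mouse genes of the endoplasmic reticulum (ER): the ER-phagy receptor gene Fam134b (now Retreg1) and 9 genes of ER protein folding and the unfolded protein response. They are Hspa5, Calr, Canx, Pdia6, Dnajb9, Herpud1, Xbp1, Atf4 and Ddit3. The members are all non-control probes on the array whose gene name is 1 of these symbols, which gave 14 of 55681 probes and 10 of 34821 gene names. Fam134b was chosen by its values in these samples: it was at least 2-fold higher in NIKaly/aly (a log2 difference of 1.08) with groups that did not overlap. Its genotype difference is therefore given as a description, with no test. The other 9 were taken for their function, and the closest of them to that 2-fold limit, Ddit3, differed by 0.57.

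The samples are LSK cells sorted fresh from mice, that is, blood-forming cells that lack lineage markers and carry Sca-1 and c-Kit, a fraction that holds stem cells and multipotent progenitors. Group 1 is wild type (samples 1, 3 and 5) and group 2 is NIKaly/aly (samples 2, 4 and 6), homozygous for the aly point mutation of Map3k14, the gene of the kinase NIK that starts alternative NF-kB signalling. The mutation is carried in the germline, so host cells of every kind carried it, and the labels give no age, sex or treatment and do not say whether a sample is 1 mouse or a pool. Total RNA was amplified, labelled with Cy3 and hybridised to 6 one-colour Agilent arrays on 1 slide. Nothing in the labels says that samples came from separate animals, so any p-value here is set against a spread between samples that may be technical only.

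The ER folds secreted and membrane proteins with the help of chaperones, among them BiP (Hspa5), calreticulin (Calr) and calnexin (Canx). When unfolded protein accumulates, 3 sensors in the ER membrane signal to the nucleus: IRE1 through splicing of Xbp1 mRNA, PERK through translation of Atf4 mRNA, and ATF6 by its own cleavage. Their target genes add folding enzymes, degradation machinery and, with lasting stress, the transcription factor CHOP (Ddit3). ER-phagy is the removal of ER fragments by autophagy, in which membrane receptors such as FAM134B bind LC3 and GABARAP proteins of the forming autophagosome. Blood stem cells are known for a tightly held rate of protein synthesis and a sensitive response to unfolded protein.

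Some chaperone genes share a promoter element, the ER stress response element (ERSE). It was read here as CCAAT and CCACG with 9 bases between them, on either strand. In the RefSeq windows of 300 bases around annotated starts (250 before, 50 after, build GRCm38.p6), all 10 genes had an entry, 13 in all because Fam134b has 4. The element was found in the windows of 4 members, all of them folding genes: Hspa5, Calr, Canx and Pdia6. It was found in 0.119% of all 32851 windows (39). Among 73 tested genes of the pathway lists below that had a window, 6 held it (8.22%). The 4 stretches are shown because they set these genes apart from the other members by sequence; across samples, as given below, the profile of Pdia6 was close to those of Calr and Canx, and that of Hspa5 was farther from all 3. Each is read in the gene's direction with 40 bases on either side, and capitals mark the element.
Hspa5, chr2:34771985-34772083, plus strand: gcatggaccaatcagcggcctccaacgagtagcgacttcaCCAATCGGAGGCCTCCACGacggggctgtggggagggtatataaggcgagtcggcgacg
Calr, chr8:84847035-84847133, minus strand: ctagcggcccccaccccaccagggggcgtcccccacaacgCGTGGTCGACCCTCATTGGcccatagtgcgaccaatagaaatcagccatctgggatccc
Canx, chr11:50325760-50325858, minus strand: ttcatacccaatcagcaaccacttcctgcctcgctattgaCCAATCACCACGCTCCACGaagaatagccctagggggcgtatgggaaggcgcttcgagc
Pdia6, chr12:17266451-17266549, plus strand: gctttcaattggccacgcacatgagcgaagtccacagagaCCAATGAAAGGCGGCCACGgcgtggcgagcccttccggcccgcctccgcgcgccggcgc

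The element begins 65 bases before the annotated start in Hspa5, 162 in Calr, where it lies on the opposite strand, 145 in Canx and 98 in Pdia6. Of the other genes with an ERSE window, 13 were tested on the arrays, 6 reading higher and 7 lower in NIKaly/aly with a median log2 difference of -0.033. A match is a description of the letters and was not tested as a binding site.

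A second element, TGATGNAAN, is bound by heterodimers of C/EBP proteins such as CHOP with ATF factors such as ATF4. Among the members it was found in the window of Herpud1, on the opposite strand, and in 3.95% of all windows. The core TGACGTGG of the element read by spliced XBP1 was in no member's window and in 0.676% of all windows. The Herpud1 stretch is shown because it is the only member window with this element, and capitals mark it.
Herpud1, chr8:94386276-94386364, plus strand: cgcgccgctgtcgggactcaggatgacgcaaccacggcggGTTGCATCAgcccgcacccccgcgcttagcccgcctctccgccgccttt

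Fam134b was measured by 1 probe, which on the mm9 build maps to chromosome 15 between 25899970 and 25901357, plus strand. Its 60 bases cover 1388 bases of genome, so it spans a splice junction. The array's annotation lists it for 1 of the 6 curated RefSeq transcripts of the gene, so the level given is that of the transcripts holding this junction. The probe sequence is shown because the single probe carries the Fam134b values.
Fam134b probe: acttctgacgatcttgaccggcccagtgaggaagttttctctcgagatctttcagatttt

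Levels below are log2 of the processed spot signal after division by the 75th percentile of the 59305 non-control spots of its array, and differences are NIKaly/aly minus wild type on that scale. The percentile ranged from 47.0 to 225 signal units over the arrays, and 33.1% to 45.6% of spots were well above background. Of the 14 member probes, 13 were well above background on all 6 arrays, and the other, a Pdia6 probe for a predicted transcript, was so on none. All 10 genes thus passed the filter through both groups (a probe well above background on at least 3 of 6 arrays), as did 15684 genes in all. Arrays with consecutive numbers, 1 of each genotype, were found to resemble each other in earlier work on these data, so differences within samples 1 and 2, 3 and 4, and 5 and 6 are also given. The median residual SD over all tested genes was 0.50, and 0.22 with these numbers as a block. The labels do not pair them.

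The LSK markers Kit and Ly6a were well above background on all 6 arrays, and Slamf1 on 2. Markers of other cell types gave signal too: all 7 neutrophil markers were well above background on every array. In linear units of the 75th percentile the 7 summed to between 1112 and 7476 in wild type and between 1221 and 4274 in NIKaly/aly. Samples 1 and 2 held the highest sums of neutrophil, B cell and T and NK cell markers, and of plasma cell markers over all 7. Over the 4 plasma cell markers well above background on all 6 arrays, sample 6 (10.8) lay above sample 2 (10.3). The 4 erythroblast markers well above background on all 6 arrays summed to 382 and 188 there and to between 8.38 and 19.6 in the other 4. T and NK cell markers summed to 209 and 176 there and to between 60.3 and 92.7 in the other 4, with Cd8a and Ncr1 well above background on none. Most of that sum came from Nkg7, at log2 levels of 5.81 to 7.63, and the next highest marker, Cd3e, read 0.95 to 2.58. In bulk samples such as these, fewer cells of a type and less RNA per cell cannot be told apart.

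Fam134b encodes a reticulon-type protein that curves ER membrane and tethers it to the autophagosome. It read 2.26, 2.11 and 1.94 in wild type 1, 3 and 5, against 3.20, 2.91 and 3.44 in NIKaly/aly 2, 4 and 6. The wild-type mean was 2.10 ± 0.16 (SD, n = 3) and the NIKaly/aly mean 3.19 ± 0.27 (SD, n = 3). All 3 NIKaly/aly samples lay above all 3 wild-type samples. The difference was 1.08 ± 0.26 (SE), and 0.94, 0.80 and 1.5 within samples 1 and 2, 3 and 4, and 5 and 6. At least 2-fold higher with groups that did not overlap were 0.402% of all tested genes, and Fam134b was the only member among them, as the choice of members fixed.

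2 lists of markers also did not overlap between the genotypes. The summed level of 7 LSK markers was 224 to 267 in wild type and 272 to 310 in NIKaly/aly, with 4 of 7 reading higher. Most of that sum came from Cd34, 122 to 216 of it, whose own groups overlapped, and Procr was the marker whose groups did not. Ly6a, which encodes Sca-1, 1 of the sort markers, read lower by log2 differences of -0.73, -0.34 and -0.95 within consecutive samples. Its groups overlapped, and 16.2% of all tested genes were lower within all 3. The summed level of 7 macrophage and dendritic cell markers was 30.2 to 49.4 in wild type and 18.4 to 22.1 in NIKaly/aly. All 7 read lower, but only 2 were well above background on all 6 arrays, and Mrc1 was so on none. The largest part of this sum came from Csf1r, at log2 4.51 to 5.29 in wild type and 3.26 to 3.82 in NIKaly/aly. Groups of single genes did not overlap for 4.57% of all tested genes. The part of either list in the Fam134b difference was not tested.

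**Figure D1:**
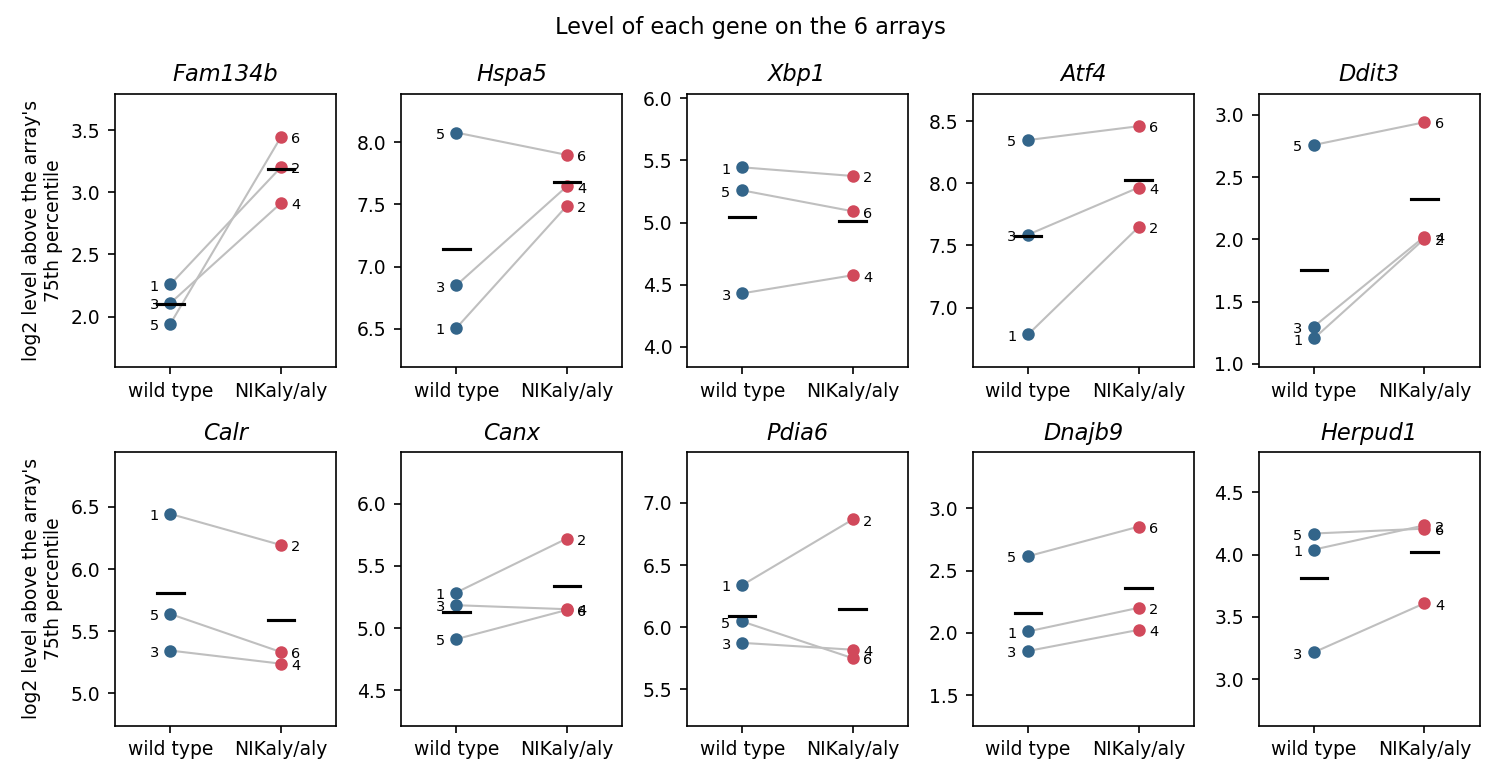
Level of each of the 10 genes on the 6 arrays, 1 panel per gene, as log2 of signal over the 75th percentile of the array; points are samples with their numbers, black bars are group means of 3, and grey lines join consecutive samples. Each panel spans the same number of log2 units. The groups are apart for Fam134b, 1.94 to 2.26 against 2.91 to 3.44, and overlap for the other 9 genes.

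Hspa5 encodes BiP, the main ER chaperone, which also holds the 3 sensors inactive. It read 6.51, 6.85 and 8.08 in wild type 1, 3 and 5, against 7.49, 7.64 and 7.90 in NIKaly/aly 2, 4 and 6. Wild type 1 and 3 were the lowest and wild type 5 the highest of all 6, so the groups overlapped. The difference was 0.53 ± 0.46 (SE). It was 0.98, 0.80 and -0.18 within consecutive samples, 1.0 without wild type 5 and 0.21 without wild type 1.

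Calr encodes calreticulin, a lectin-type chaperone that binds calcium. It read 6.44, 5.34 and 5.64 in wild type, against 6.19, 5.24 and 5.33 in NIKaly/aly, in the same order of samples. Samples 1 and 2 were the highest of the 6, whichever the genotype. The difference was -0.22 ± 0.41 (SE), with -0.25, -0.11 and -0.31 within consecutive samples. Calr was thus the only member lower in NIKaly/aly within all 3, which 16.2% of tested genes were. Without wild type 1 the difference was 0.097.

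Canx encodes calnexin, the membrane-bound relative of calreticulin. It read 5.29, 5.18 and 4.91 in wild type, against 5.72, 5.15 and 5.15 in NIKaly/aly, with sample 2 the highest. Its range of 0.81 over the 6 arrays was the smallest of the 10 genes. The difference was 0.21 ± 0.30 (SE), 0.022 without NIKaly/aly 2 and 0.10 without wild type 5.

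Pdia6, a protein disulfide isomerase, read 6.34, 5.87 and 6.05 in wild type, against 6.87, 5.82 and 5.75 in NIKaly/aly by its brightest probe. Sample 2 was the highest here too, and samples 4 and 6 the lowest. The difference was 0.059 ± 0.39 (SE), and -0.30 without NIKaly/aly 2. Its second detected probe differed by 0.17.

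Dnajb9 encodes an ER-resident DnaJ co-chaperone of BiP. It read 2.01, 1.85 and 2.62 in wild type, against 2.20, 2.02 and 2.85 in NIKaly/aly, with samples 5 and 6 the highest. The difference was 0.20 ± 0.33 (SE), with 0.19, 0.17 and 0.24 within consecutive samples. The gene's dimmer probe read the other way, at -0.21, with -0.90, -0.030 and 0.29 within consecutive samples, so the direction of Dnajb9 depends on the probe. It was also -0.048 without NIKaly/aly 6.

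Herpud1 encodes an ER membrane protein of the degradation machinery. It read 4.04, 3.21 and 4.17 in wild type, against 4.24, 3.61 and 4.21 in NIKaly/aly, with samples 3 and 4 below the other 4. The difference was 0.21 ± 0.35 (SE), and -0.087 without wild type 3.

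Xbp1 encodes the transcription factor activated by IRE1 splicing. Its probe is listed for both RefSeq transcripts of the gene, so it does not separate spliced from unspliced mRNA. It read 5.44, 4.43 and 5.26 in wild type, against 5.37, 4.58 and 5.09 in NIKaly/aly, again with samples 3 and 4 the lowest. The difference of -0.031 ± 0.38 (SE) was far smaller than the SD of 0.54 among wild-type samples, and its sign changed with the scaling of the arrays (0.068 with median scaling) and with the array left out (-0.34 to 0.19).

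Plasma cells use Xbp1 for secretion, so their markers are given beside it, followed by those of B cells. The summed level of the 7 plasma cell markers was highest in samples 1 and 2 (38.5 and 18.2) and lowest in samples 3 and 4 (9.35 and 3.80), the samples in which Xbp1 was highest and lowest. Of those 7, Prdm1 and Tnfrsf17 were well above background on no array, and 3 read higher and 4 lower in NIKaly/aly. The 4 that were well above background on all 6 arrays summed to 10.3 in sample 2 and 10.8 in sample 6. The 7 B cell markers summed to 101 and 52.4 in samples 1 and 2 and to 28.0 and 15.6 in samples 3 and 4. All 7 read lower in NIKaly/aly. In samples 5 and 6 the B cell sums were 30.7 and 32.2 and the plasma cell sums 14.5 and 11.1. Xbp1 there read 5.26 and 5.09, against 4.43 in sample 3. The part of these markers in the Xbp1 levels was not tested.

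Atf4, the transcription factor made when PERK or another kinase slows general translation, read 6.78, 7.59 and 8.35 in wild type, against 7.65, 7.97 and 8.46 in NIKaly/aly. Wild type 1 was the lowest and samples 5 and 6 the highest. The difference was 0.45 ± 0.48 (SE), with 0.86, 0.38 and 0.11 within consecutive samples, and its second probe differed by 0.33. Without wild type 1 it was 0.057. Since ATF4 is controlled largely through translation, mRNA level measures only part of its activity.

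Ddit3 encodes CHOP, which acts downstream of ATF4. It read 1.20, 1.30 and 2.76 in wild type, against 2.01, 2.02 and 2.94 in NIKaly/aly, with samples 5 and 6 above the other 4. The difference was 0.57 ± 0.48 (SE), with 0.80, 0.72 and 0.18 within consecutive samples. It was 1.07 without wild type 5 and 0.26 without NIKaly/aly 6.

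None of the 9 genes besides Fam134b passed the fit over all genes, in which 0% of 15684 genes were called (limma, Benjamini-Hochberg adjusted p = 0.99998 for each). None of the 9 had an unadjusted p under 0.05, against 1.33% of all genes, and none had groups that did not overlap. Of all genes 4.57% did, 2.68% with NIKaly/aly higher and 1.89% with it lower. Of the 9, 7 read higher and 2 lower, with a median difference of 0.21 against -0.0081 over all genes tested. Within consecutive samples, Atf4, Ddit3, Dnajb9 and Herpud1 read higher in NIKaly/aly in all 3, which 13.8% of all genes did. With consecutive samples as a block none of the 9 passed either (limma, adjusted p = 0.45 to 0.97), where 0.0128% of all genes did. At an unadjusted p under 0.05 with the block there were then 3 of the 9, Hspa5, Atf4 and Ddit3, against 7.35% of all genes.

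**Figure D2:**
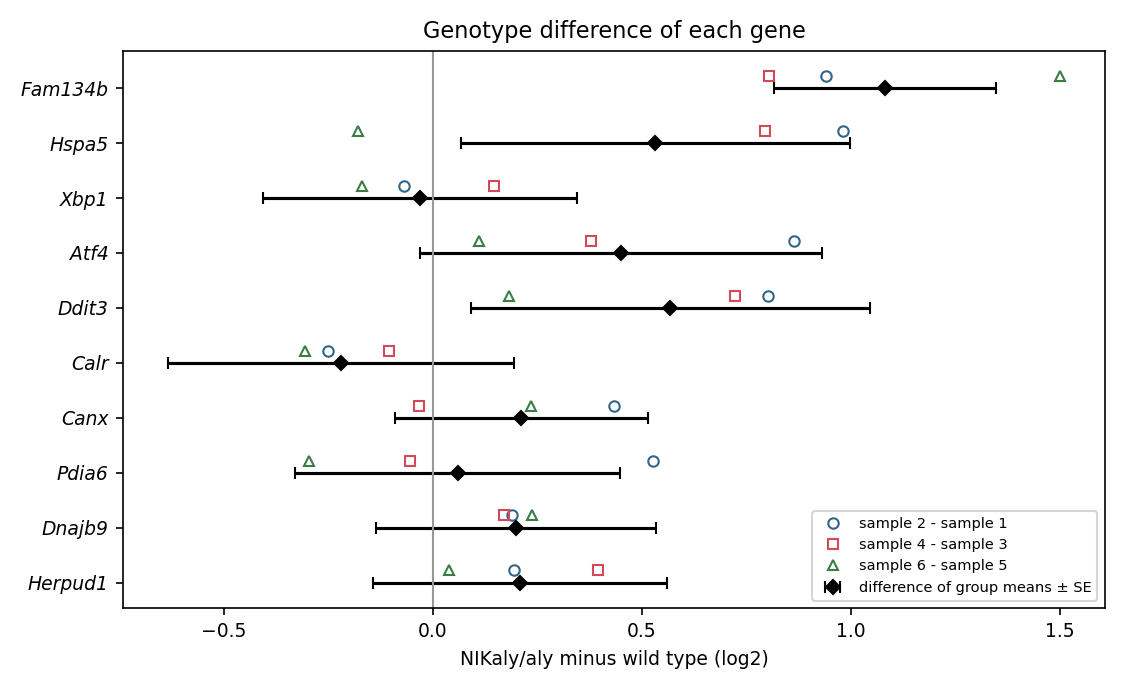
NIKaly/aly minus wild type for each gene in log2 units; diamonds are differences of group means with the standard error from limma (n = 3 per genotype), and open symbols are the differences within consecutive samples. All 4 values of Fam134b lie between 0.80 and 1.5; of the other genes, Atf4, Ddit3, Dnajb9 and Herpud1 have all 3 open symbols above 0 and Calr has all 3 below.

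Each gene's level was then set against its own mean over the 6 arrays, which compares patterns without comparing probes. 3 genes shared 1 pattern: Hspa5, Atf4 and Ddit3 were lowest in wild type 1 (-0.91, -1.01 and -0.83) and above their means in both samples 5 and 6 (0.49 to 0.90). Calr ran the other way, at 0.74 and 0.49 in samples 1 and 2 and at -0.06 and -0.37 in samples 5 and 6. Pdia6 and Canx were, like Calr, above their means in samples 1 and 2 and below them in the other 4. Samples 1 and 2 had the highest sums of neutrophil, B cell, erythroblast and, mostly through Nkg7, T and NK cell markers given above. The part of these cell types in the patterns was not tested. Xbp1 and Herpud1 shared another pattern, with samples 3 and 4 below the rest.

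These groupings were made after the values were seen. By root mean square difference of the centred levels over 6 arrays, the most alike of the 45 member pairs were Xbp1 with Herpud1 (0.17) and Hspa5 with Atf4 (0.20), and the least alike was Atf4 with Calr (0.94). Of the 4 genes with an ERSE in the sequences above, Hspa5 differed from Calr by 0.88, whereas Calr and Pdia6 differed by 0.25 and Canx and Pdia6 by 0.23. Of the 10 genes, Fam134b included, 5, 0 and 6 were above their own means in wild type 1, 3 and 5. In NIKaly/aly 2, 4 and 6 there were 7, 3 and 7 above. The median over all tested genes deviated from its mean by 0.20 and 0.23 in samples 1 and 2 and by -0.13 to -0.063 in the other 4.

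**Figure D3:**
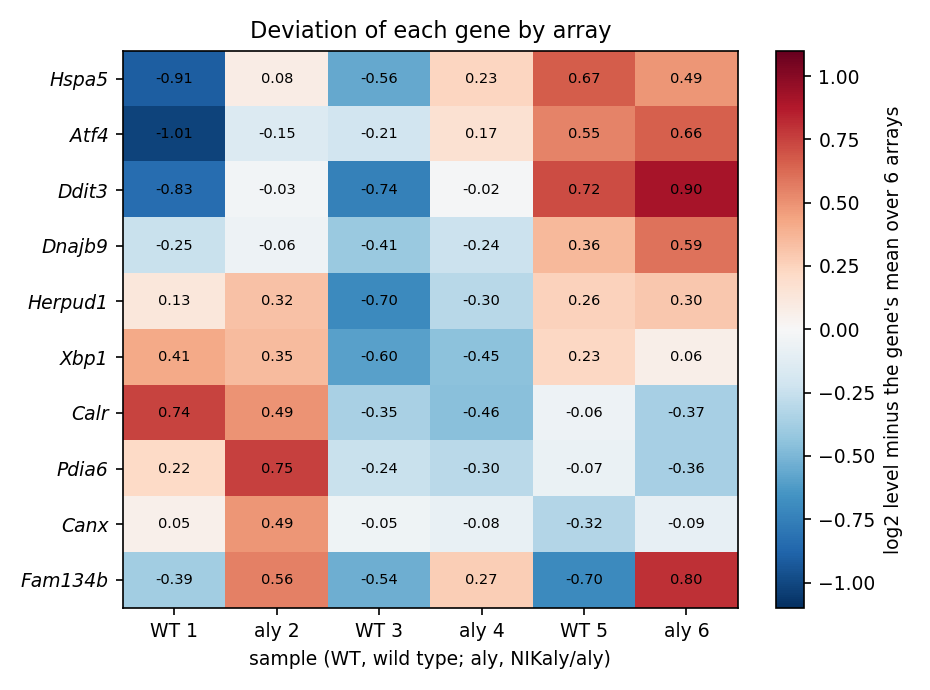
Deviation of each gene (rows) from its own mean over the 6 arrays (columns), in log2 units, with red above and blue below the mean. Hspa5, Atf4 and Ddit3 go from -1.01 to -0.83 in wild type 1 to 0.49 to 0.90 in samples 5 and 6, Calr goes the other way, and Fam134b alternates with genotype.

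By the same measure, the tested genes whose profile was most like that of Fam134b were Rab19 (0.15), a small GTPase gene, Amigo3 (0.17) and Ccrl2 (0.17), a chemokine-binding receptor gene. Their differences were 0.93, 0.78 and 1.02, each with groups that did not overlap, which likeness to the profile of Fam134b favours. Amigo3 cleared background on all 3 NIKaly/aly arrays and on 1 wild-type array. The profiles most like that of Hspa5 were those of Zfand2a (0.16), a stress-inducible gene of protein degradation, Zfp532 (0.19) and Ctla2a (0.20). Each rests on 6 arrays. These were the 3 nearest to each target among the tested genes with a gene symbol, members left out, so no further reading is given.

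The wider pathway was covered by 7 lists with 94 other genes, of which 91 were tested. None of the 91 passed in either direction (limma, Benjamini-Hochberg adjusted at 0.05), and 1, Trib3, had an unadjusted p under 0.05, against 1.33% of all genes. With consecutive samples as a block none passed and 5 had an unadjusted p under 0.05, against 7.35% of all genes. They read higher for 44 and lower for 47, with a median of -0.018. Groups did not overlap for 4, where 4.57% of all genes had such groups. Eif2ak3 (0.37) and Ssr3 (0.36) were higher, and Dnajc3 (-0.55) and Trib3 (-0.67) lower. Ssr3 and Dnajc3 were named after their values were seen.

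Of the stress sensors, Eif2ak3, which encodes PERK, read -0.21, -0.12 and -0.17 in wild type, against 0.08, 0.20 and 0.33 in NIKaly/aly. Its difference was 0.37 ± 0.27 (SE). Ern1, which encodes IRE1, differed by -0.023 ± 0.55 (SE) and Atf6 by -0.036. Atf6b, a relative of Atf6, differed by -0.59 and was lower within all 3 consecutive pairs.

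Of 17 other ER chaperones and folding enzymes, 6 read higher and 11 lower (median -0.093), and none passed. Hsp90b1, the ER form of HSP90, differed by 0.053, Hyou1 by -0.24, Pdia3 by -0.062 and Pdia4 by -0.093. Hspa5 read higher by 0.53 ± 0.46 (SE) with groups that overlapped, and the genes of this list ran from -0.85 to 0.10. The gene at -0.85 differed by -3.19, 0.50 and 0.14 within consecutive samples, so that value rests on samples 1 and 2. All 15 genes listed under ER-associated degradation were tested, with 4 higher and 11 lower (median -0.035) and none past the threshold. Among them, the ubiquitin ligase genes Syvn1 and its partner Sel1l differed by -0.033 and -0.073, Derl1 by -0.0018 and Derl2 by 0.0094.

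Of 13 tested targets of ATF4 and CHOP, 6 read higher and 7 lower (median -0.037), and none passed. Trib3, a pseudokinase gene induced by CHOP and ATF4, read 0.97, 1.06 and 0.83 in wild type, against -0.08, 0.55 and 0.38 in NIKaly/aly, so its groups did not overlap. Its difference was -0.67 ± 0.28 (SE), opposite in sign to that of Ddit3 and Atf4 on the same arrays. Chac1, which degrades glutathione and is induced along the same route, differed by -0.62 ± 0.96 (SE), Asns, asparagine synthetase, by 0.21 and Ppp1r15a, which restores translation, by 0.064.

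Of 14 targets of XBP1 in translocation and secretion, 9 read higher and 5 lower (median 0.013), and none passed. The translocon genes Sec61a1, Sec61b and Sec61g differed by -0.054, -0.097 and -0.054, and Ssr1, of the translocon-associated complex, by 0.13.

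Of 10 other ER-phagy receptors and helpers, 7 read higher and 3 lower (median 0.049), and none passed. Both close relatives of Fam134b read lower in NIKaly/aly. Fam134a read 3.33, 2.47 and 2.57 in wild type, against 3.12, 2.27 and 2.24 in NIKaly/aly (difference -0.24 ± 0.36, SE). Fam134c read 1.16, 0.96 and 0.46 in wild type, against 0.72, 0.61 and 0.42 in NIKaly/aly (-0.28 ± 0.29, SE). The groups of each overlapped, and each was lower within all 3 consecutive pairs, as 16.2% of all genes were. Of the other receptors, Rtn3 differed by 0.025 and Sec62 by 0.26.

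Of 18 genes of the autophagosome core, 11 read higher and 7 lower (median 0.082), and none passed. The partners that ER-phagy receptors bind each differed by less than the standard error: Map1lc3a by -0.037, Map1lc3b by 0.020, Gabarap by -0.071 and Gabarapl1 by 0.26 ± 0.32 (SE). The Fam134b difference of 1.08 lay above the highest value of every list, which was 0.55 in the targets of ATF4 and CHOP. Fam134b was chosen for a difference of at least 2-fold, so its place above the lists is a description only.

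**Figure D4:**
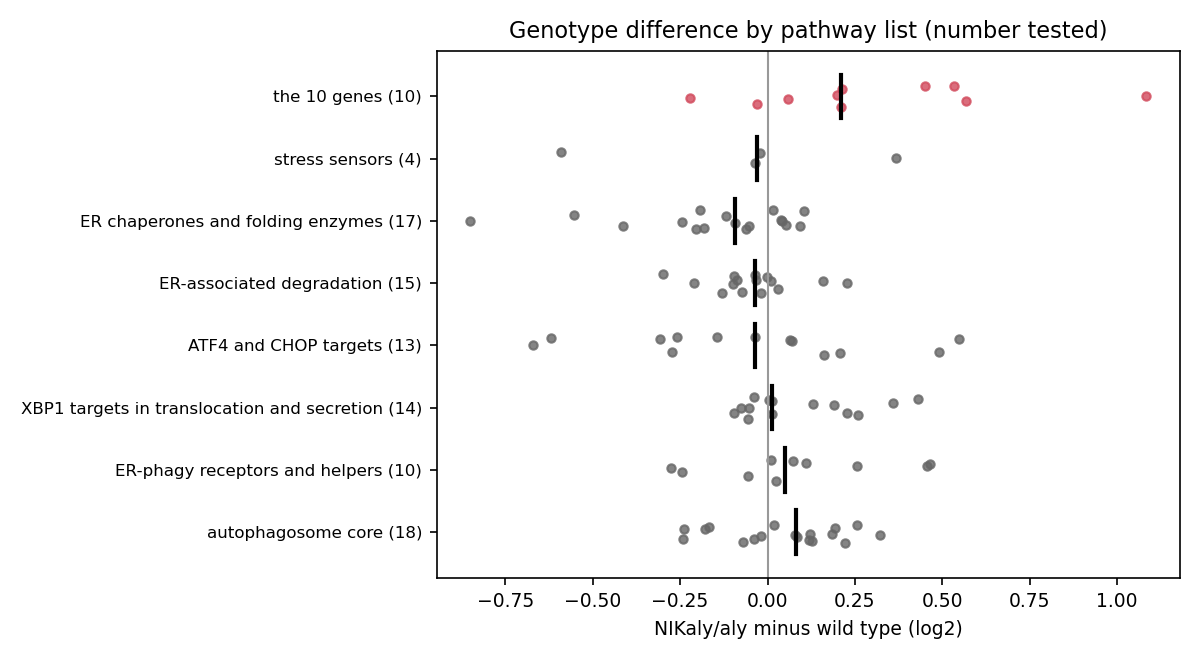
NIKaly/aly minus wild type in log2 units for the 10 genes (red) and for the tested genes of 7 pathway lists (grey), with 1 point per gene and a black bar at each list's median. List medians lie between -0.093 and 0.082, that of the 10 genes at 0.21, and Fam134b, chosen by its value, is rightmost at 1.08.

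**Figure D5:**
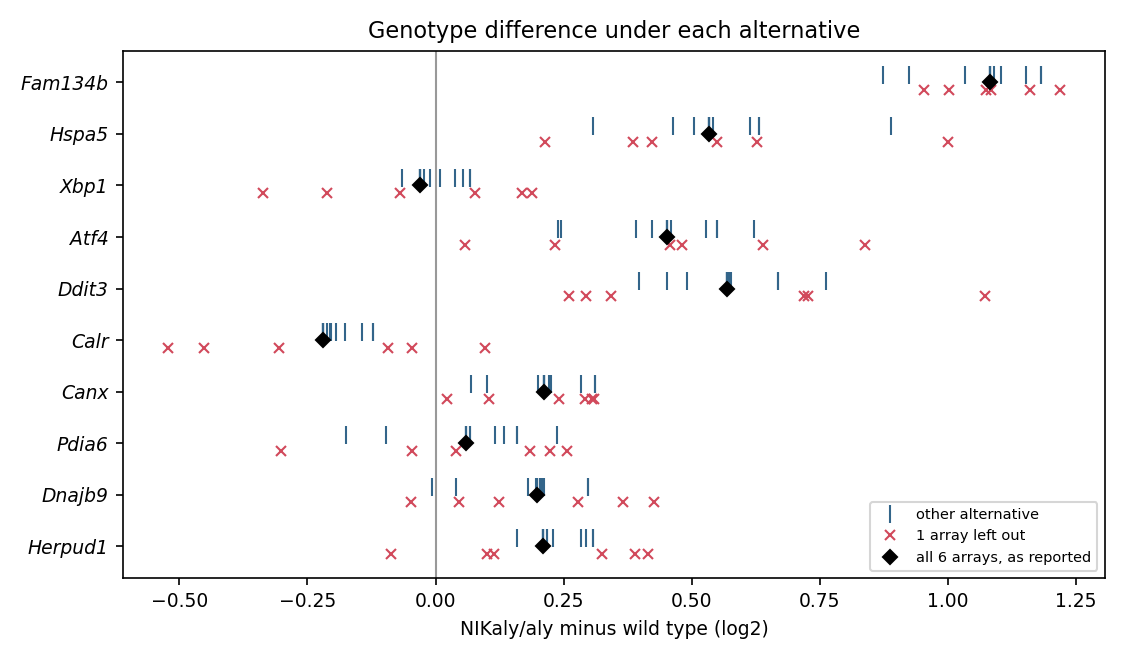
Each gene's NIKaly/aly minus wild type difference in log2 units with all 6 arrays (diamonds), with 1 array left out (crosses) and under the other processing alternatives (bars). Fam134b, chosen by its value, stays between 0.87 and 1.22, its direction being fixed by that choice wherever the same levels were used. Hspa5, Atf4, Ddit3 and Canx stay above 0, and Xbp1, Calr, Pdia6, Dnajb9 and Herpud1 have values on both sides of 0.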

How the data were processed

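Per the file headers, the authors' software for reading spot intensity from the 6 one-colour arrays was Agilent Feature Extraction (10.7.3.1), and probe positions are on mm9. The deposited intensity used here has the background removed and a surrogate in place of values near it. The authors' deposited series table is a ratio, the processed signal over the array's median, and served as an alternative. Normalization was log2 of the processed signal minus the array's 75th percentile. Control spots and outlier-flagged spots were left out, no spot was saturated, and spots of 1 probe were averaged. Of 21242 probes well above background on at least 3 arrays, 22 lacked a value. The brightest probe stood for a gene. Genotype was compared with limma 3.58.1 in R 4.3.3 (lmFit, eBayes with an intensity trend, 4 residual degrees of freedom, two-sided). P-values were Benjamini-Hochberg adjusted over all genes, at 0.05. The fit was also run on simulated data, with changes larger than any member's and noise independent between arrays. Whether it could call differences of the size seen here was not tested. The number of arrays limits the precision.

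Members, pathway lists, markers and motifs were chosen with earlier results of these data known. All 10 members are named. Of each pathway list the first 4 tested genes as written are named. For Fam134b and Hspa5 the 3 tested genes with a gene symbol and the nearest profile are named. Promoter sequences are from RefSeq, on GRCm38.p6, matched by symbol or synonym. Part of 1 marker list is not reported here. The sample numbers of the 2 genotypes do not overlap, so no replicate numbers are shared. Alternatives were median and quantile scaling, the percentile over probes detected on all arrays, normexp (offset 50), other filters, the mean of a gene's probes, consecutive samples or slide row as a block, array weights, and leaving out arrays.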

Additional observations from a re-analysis of the deposited data

How the results depend on the processing

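Over 19 alternatives, no member and no pathway gene was called under any. The median difference of all 10 members, with Fam134b, chosen by its value, among them, stayed between 0.11 and 0.41 (0.14 to 0.41 leaving out 1 array). Hspa5, Atf4, Ddit3 and Canx kept their direction in all 19. So did Fam134b, whose choice by groups that did not overlap fixed its direction wherever these same levels were used. The sign changed in 8 for Xbp1, 4 for Pdia6, 2 for Dnajb9 and 1 each for Calr and Herpud1. The number of genes called over all genes in limma was 0, with 208 at an unadjusted p under 0.05. It was 10 with median scaling and with the authors' table, which repeats it, 5 with array weights, 2 with consecutive samples as a block, 2 with no filter, 1 with normexp, and 0 to 1 leaving out 1 array (1 without wild type 3). The cause was not tested. The labels do not pair the samples, and the block of consecutive samples rests on likeness in the data. Median scaling moved the median of all genes to 0.091, leaving out wild type 1 to 0.099 and leaving out NIKaly/aly 2 to -0.11. Signal over background limits the dim Pdia6 probe, which has no measured level.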
